A study of Rattus norvegicus with 4 samples.

Results

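The difference described here is that between an astrocyte culture transfected with an siRNA against SHP and one transfected with a control siRNA, both given interferon-γ (IFN-γ) and the compound that the labels call GW. It was taken gene by gene as the log2 signal of the SHP siRNA array minus that of the control siRNA array, over 11790 of 18166 genes. Those are the genes with a probe of 1 symbol whose highest value over the 4 arrays of the series reached 5.83, the median of all values in the table. Where a gene had several probes, the one with the highest mean stood for it. Rat cortical astrocytes were grown from Sprague-Dawley pups of 1 day, after a serum-free step meant to deplete microglia and meningeal cells, and the treatments ran for 3 h. The remaining 2 arrays were of control siRNA cultures, 1 untreated and 1 given IFN-γ without GW, and every culture of the series had been transfected. The series held no array of SHP siRNA without GW or without IFN-γ. An effect of SHP siRNA by itself thus cannot be told apart from its combination with them.

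Each condition had 1 array. There is thus no replicate error to set a difference against and no p-value is given, and siRNA and culture cannot be told apart. The number of arrays limits the precision. A gene is counted below when its difference reached 2-fold, and 4 log2 values in a row are always in the order untreated, IFN-γ, IFN-γ with GW, and SHP siRNA with IFN-γ and GW. Counting a gene by the last 2 arrays favours 1 of them being its highest or lowest. The order of the arrays in counted genes is therefore only described.

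SHP, the small heterodimer partner, is a nuclear receptor without a DNA-binding domain. It binds other nuclear receptors and transcription factors and represses their activity, and it is best known from the control of bile acid synthesis in the liver. Astrocytes answer IFN-γ through receptor-bound JAK kinases, whose signal switches on interferon regulatory factors, chemokines that attract T cells, and antigen presentation. Immediate early genes are a separate class, mostly transcription factors such as FOS, EGR and NR4A proteins, that many stimuli switch on for a short time through cAMP, calcium or MAP kinase signals.

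The target was checked first. Nr0b2, the gene of SHP, had log2 values of 5.33, 5.14, 5.20 and 3.45, the lowest being in the SHP siRNA array. All 4 lie below 5.83, and no background level is known for them, so Nr0b2 was not among the 11790 genes and the size of its difference (-1.74) is uncertain. Ptpn6 and Ptpn11, phosphatase genes whose products are also abbreviated SHP, differed by -0.08 and 0.14.

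The labelled cell type was checked against its markers. The filter kept 12 of 13 astrocyte markers, among them the intermediate filament gene Gfap (12.03, 12.06, 12.11 and 12.06) and the glutamate transporter gene Slc1a3. All 20 microglia and myeloid markers also passed, with Cd53 at 10.92 in the untreated array, so signal of these genes was present despite the depletion step. Of the other marker lists, 14 of 18 meningeal and fibroblast markers, 11 of 11 ependymal, 8 of 13 oligodendrocyte, 5 of 14 neuron and 3 of 10 endothelial and pericyte markers passed. Over all genes 11790 of 18166 passed, so passing the filter does not by itself show that a cell type was present. In bulk RNA, fewer cells of a type and less RNA per cell cannot be told apart.

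With SHP siRNA the T cell chemokine gene Cxcl9 was 4.96-fold higher, the greatest difference of any gene past the filter. The water channel gene Aqp1 (2.83-fold) and the matrix gene Postn (2.69-fold) were also higher. Immediate early genes stood at the other end, with the zinc finger factor gene Egr4 3.67-fold lower and the orphan nuclear receptor gene Nr4a2 3.65-fold lower. The higher side held 17 genes past 2-fold, 0.144% of those examined, and the lower side 31, 0.263%. In a short list a count of 0 past 2-fold is therefore close to these shares and says little. The median of all differences was 0.01, and the central 95% lay between -0.46 and 0.48.

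The counted genes were not confined to weak signals. With genes split into 4 equal groups by mean level, from lowest to highest, 8, 14, 12 and 14 reached 2-fold. In the group of highest level 11 were lower and 3 higher. A few counts rested on values below the table median: in 3 of the 17 higher and 3 of the 31 lower genes, 1 or both compared arrays lay below 5.83. At 1.5-fold the balance was different, with 168 genes higher (1.42%) and 142 lower (1.2%).

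**Figure D1:**
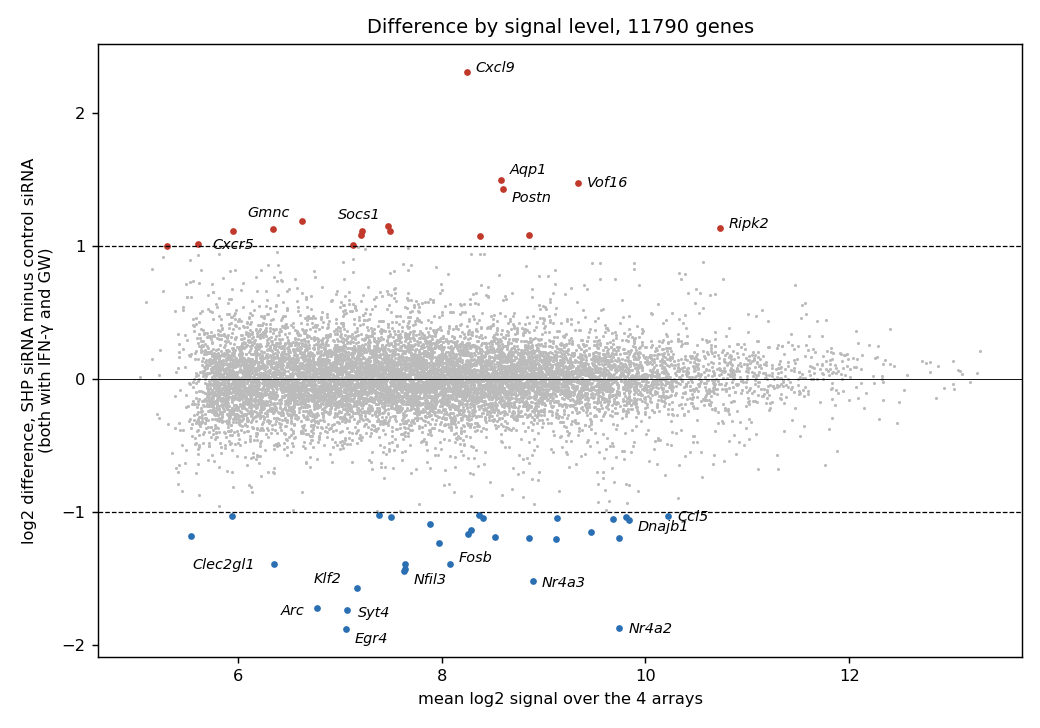
Log2 difference of SHP siRNA minus control siRNA in the presence of IFN-γ and GW, against the mean log2 signal over the 4 arrays, 1 point per gene past the filter (11790 genes, 1 array per condition). Dashed lines mark 2-fold, red points are the 17 genes past 2-fold on the higher side and blue points the 31 on the lower side, and Cxcl9 at 2.31 stands above all others.

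Genes closest to the threshold show how little separates counted from uncounted ones. On the higher side Tnfsf18 (1.00), Cdh13 (1.01) and Rpl27al5 (1.02) lay just inside, while Tfrc, the transferrin receptor gene, and the gelatinase gene Mmp2 (both 1.00 after rounding) and Tfpi (0.99) lay just outside. On the lower side Clcn5 and Calhm5 (both -1.02) and Ccl5 (-1.03) lay just inside, with Cryab (-0.998), Egr3 (-0.99) and Plk3 (-0.99) just outside.

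The immediate early genes were described by role, beginning with the EGR and activity-regulated genes. Of the 17, 6 reached 2-fold on the lower side and 0 on the higher side, 16 lay below 0, and the median was -0.70. Across all genes 48.4% lay below 0. All gene lists used here were chosen with earlier results of these data known, so their counts and medians only describe them. Egr4 read 5.63, 6.07, 9.20 and 7.33. Arc, a synaptic plasticity gene of active neurons, read 5.74, 5.42, 8.83 and 7.11. In both, the array with control siRNA and GW was the highest and the SHP siRNA array the second highest. The vesicle protein gene Syt4 went differently, at 6.61, 6.69, 8.37 and 6.63, so that its SHP siRNA value lay beside those without GW.

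Egr2 (7.29, 8.73, 10.84 and 9.63) and Ier2 (8.36, 8.97, 10.84 and 9.69), both rapid-response genes, differed by -1.20 and -1.15. The neuronal activity factor gene Npas4 differed by -1.18, but its SHP siRNA value of 5.51 lay below 5.83, so that size is uncertain. Npas4 passed through the control siRNA array with GW alone, so a difference below 0 was favoured by the filter. Egr1, the most widely studied member, differed by only -0.35, from 12.62 to 12.27. Srf, which encodes the factor that drives many early genes through serum response elements, stood at 9.67 with control siRNA and 8.97 with SHP siRNA. Plk2 was the 1 member above 0, at 0.30.

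All 3 NR4A genes, orphan nuclear receptors that are induced within an hour of many stimuli, were lower with SHP siRNA. Nr4a2 read 8.59, 8.94, 11.66 and 9.79, and Nr4a3 read 6.67, 8.14, 11.14 and 9.62. Nr4a1, at 8.34, 9.63, 12.48 and 11.75, had the smallest difference of the 3 (-0.73). In each the order of the 4 arrays was the same, with the untreated array lowest.

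Among AP-1 genes, which code for the dimerising FOS, JUN and ATF factors, 1 of 12 reached 2-fold and 10 lay below 0, with a median of -0.26. Fosb read 6.35, 6.58, 10.39 and 8.999, a difference of -1.39. Atf3 (-0.78), Fosl1 (-0.66), Jun (-0.64) and Fos (-0.61) were between 1.5-fold and 2-fold lower. A second Jun probe differed by -0.83. Junb (-0.24), Jund (-0.28) and Mafk (-0.07) differed less, and Maff (0.13) and Batf2 (0.07) stood above 0. Members of the list thus differed widely, from -1.39 to 0.13.

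Krüppel-like factor genes code for zinc finger factors, and 2 of 13 reached 2-fold lower, with 10 below 0 and a median of -0.33. They were the paralogues Klf2 (6.49, 6.23, 8.76 and 7.19) and Klf4 (6.53, 7.23, 9.09 and 7.70). The next were Klf6 (-0.45) and Klf7 (-0.41), and Klf15 was highest at 0.24. Feedback inhibitors of MAP kinase signalling, the DUSP phosphatases with sprouty and sprouty-related proteins, had 0 of 13 at 2-fold but 12 below 0 and a median of -0.32. Dusp10 (-0.85), Spry4 (-0.84) and Spry2 (-0.75) led them, while Dusp1 differed by -0.47.

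Regulators that respond to cAMP were mixed. Of 15, those past 2-fold were 2 lower ones, the repressor gene Nfil3 (6.58, 6.73, 9.34 and 7.89) and the kinase gene Sik1 (7.41, 8.89, 10.64 and 9.60), and 10 lay below 0, with a median of -0.10. The clock gene Per1 (-0.63) and the cAMP-inducible repressor gene Crem (-0.54) were lower, whereas Creb1, whose product binds cAMP response elements, stood at 0.34 (0.03 for its second probe). Over these 6 lists together, a grouping made after the values were seen, 61 of 73 distinct genes lay below 0, 13 reached 2-fold on that side, and the median was -0.35. No member was 2-fold higher (0 of 73), which is close to the share of 0.144% over all genes.

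**Figure D2:**
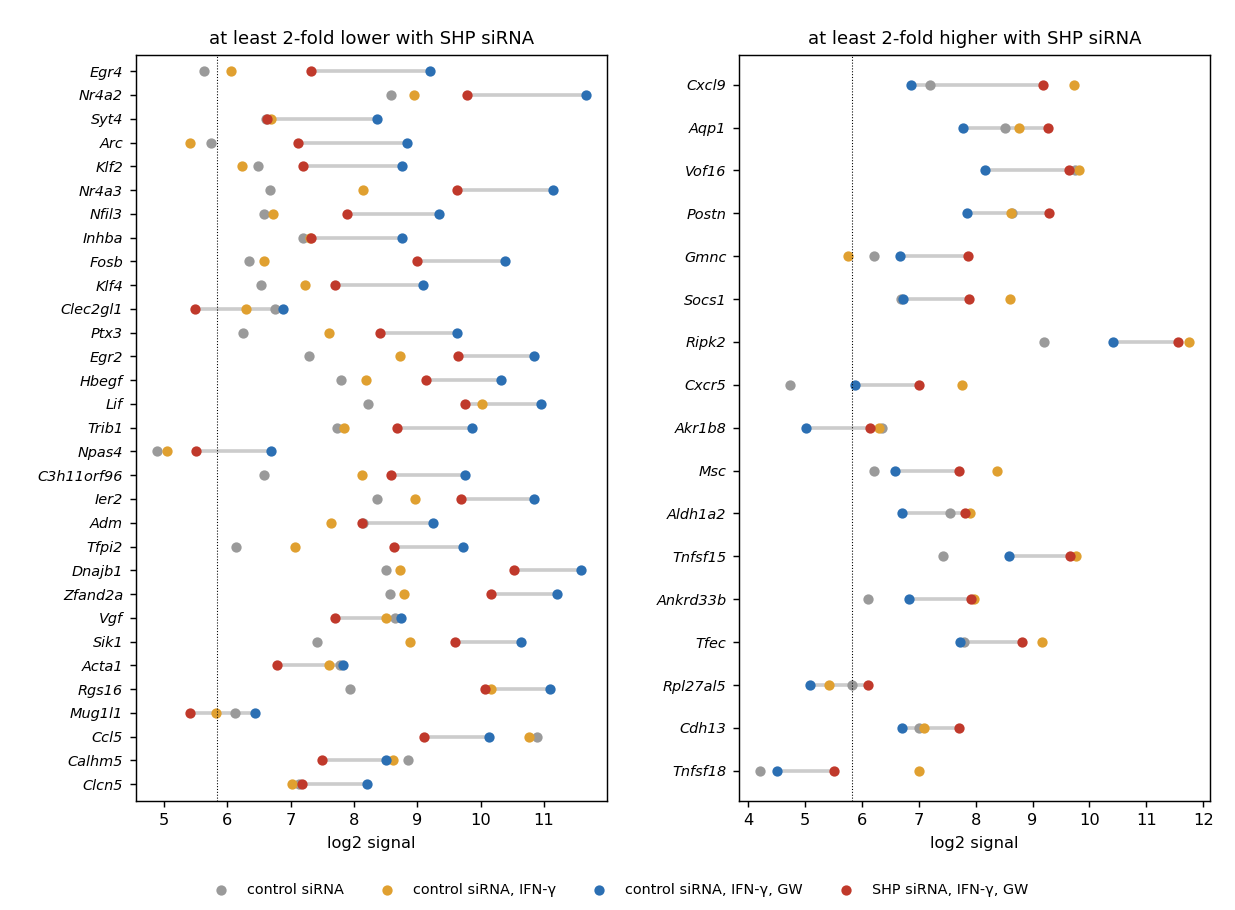
Log2 signal in each of the 4 arrays for the 31 lower (left) and 17 higher (right) genes past 2-fold with SHP siRNA, ordered by difference, 1 array per condition. Grey bars join the compared arrays, the dotted line is the table median of 5.83, and Cxcl9 (6.87 against 9.18) has the longest bar.

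Promoters of counted genes were searched for short motifs that bind the factors of these pathways, in windows from 250 bases before to 50 bases after each RefSeq start (GRCr8). Of the 31 lower genes 24 had a window, and 13 of the 17 higher genes. The full cAMP response element TGACGTCA, searched on both strands like the other motifs, was in 2 of the 24 windows, those of Ier2 and of the neuropeptide precursor gene Vgf, against 3.1% of windows of genes past the filter and 1.91% of all 27457 windows. CArG boxes, the core of serum response elements, were in 3 of the 24, Egr2, Acta1 and Clec2gl1, against 1.35% and 1.64%. The stretches before the start are shown for 4 of these genes, in which the match lies before the start. In Clec2gl1 it lies after the start. Vgf and Acta1 belong to none of the early gene lists above. Capitals mark the cAMP response element in the first pair and the CArG box in the second pair.
Ier2 (chr19:40399253-40399372, plus strand): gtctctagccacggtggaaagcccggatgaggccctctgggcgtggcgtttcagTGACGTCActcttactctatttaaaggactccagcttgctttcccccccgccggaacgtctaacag
Vgf (chr12:25277021-25277140, minus strand): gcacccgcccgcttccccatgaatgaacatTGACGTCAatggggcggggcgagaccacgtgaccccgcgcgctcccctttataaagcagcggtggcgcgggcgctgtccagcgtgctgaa
Egr2 (chr20:21054442-21054561, minus strand): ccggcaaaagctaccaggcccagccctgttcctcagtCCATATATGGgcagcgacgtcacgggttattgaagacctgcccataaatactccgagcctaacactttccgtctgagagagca
Acta1 (chr19:68784195-68784314, minus strand): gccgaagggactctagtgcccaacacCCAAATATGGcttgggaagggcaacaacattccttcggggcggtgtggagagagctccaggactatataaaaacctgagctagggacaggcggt

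Counting the base before the start as -1, the element begins at -66 in Ier2 and -90 in Vgf, and the CArG box at -83 in Egr2 and -94 in Acta1. Vgf read 8.65, 8.51, 8.75 and 7.70, and Acta1, the skeletal muscle actin gene, 7.78, 7.61, 7.82 and 6.79, so in both the SHP siRNA array was the low one of 4. Ier2 and Egr2 instead had their highest value with control siRNA and GW. Both orders are favoured by the choice of genes on the difference between these 2 arrays. The AP-1 site TGANTCA was in 2 of the 24 windows (5.04% of genes past the filter), and the EGR site GCGNGGGCG in 2 (10%). The NF-κB site was in 3 of the 24, Egr4, Ptx3 and Tfpi2, and in 1 of the 13 windows of higher genes, Ankrd33b, against 4.97%. A variant cAMP element, TGACGCAA, was in 1 of the 24, Syt4, against 0.927%. No window of the 31 lower genes held the heat shock element (0 of 24, against 0.474%) or the NR4A element AAAGGTCA (0 of 24, against 0.742%). A match is only a run of letters in these windows.

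Heat shock genes were lower beside the early genes. The list holds chaperones and cochaperones, which refold damaged proteins, and the heat shock factor genes Hsf1 (-0.09) and Hsf2 (0.07). Of its 16 genes 14 lay below 0, with a median of -0.42. Dnajb1, which activates HSP70, was the 1 member past 2-fold, at 8.50, 8.72, 11.59 and 10.53. The small heat shock protein genes Cryab (9.73, 9.77, 11.77 and 10.77) and Hspb1 (-0.65), the cochaperone gene Bag3 (-0.90) and the mitochondrial chaperonin genes Hspe1 (-0.83) and Hspd1 (-0.44) were also lower. Zfand2a, a stress-induced zinc finger gene outside the list, read 8.57, 8.79, 11.21 and 10.16.

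Genes of the unfolded protein and integrated stress response did not share that direction. Of 18, 12 lay above 0, 0 reached 2-fold in either direction, and the median was 0.05. The glutathione-degrading enzyme gene Chac1 (-0.91) and Ddit3 (-0.47) were the lowest, and the endoplasmic reticulum chaperone gene Hspa5 stood at 0.22. Of the GADD45 and p53 target genes, Gadd45g (-0.93) and Gadd45a (-0.64) were lower and Gadd45b was at 0.16, with a list median of -0.09 over 9 genes.

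Several secreted factors were also among the lower genes. Inhba, the activin subunit gene, read 7.19, 7.31, 8.75 and 7.32, and Hbegf, an epidermal growth factor receptor ligand, 7.79, 8.19, 10.32 and 9.13. The 22 growth factor genes had 15 below 0, of which 2 past 2-fold, and a median of -0.08, with Bmp4 highest at 0.59. Lif, a cytokine of the interleukin-6 family, read 8.22, 10.02, 10.95 and 9.76. Its relatives Il6 (-0.92), Il11 (-0.79) and Clcf1 (-0.49) had the same direction at under 2-fold, and Osm differed by -0.13. Other lower genes of this kind were the pentraxin gene Ptx3 (6.26, 7.60, 9.63 and 8.41), the vasodilator peptide gene Adm (8.15, 7.63, 9.25 and 8.12) and the protease inhibitor gene Tfpi2 (6.14, 7.07, 9.72 and 8.63).

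The activin and transforming growth factor-β list held no shared direction, with 10 of 20 genes on each side of 0 and a median of -0.04. Beside Inhba, the targets Id1 (-0.75) and Id3 (-0.34) were lower, the activin antagonist gene Fst was at -0.58, and the inhibitory Smad7 was at 0.42. The SHP siRNA value of Fst, 5.79, lay below 5.83. Genes regulated by serum response factor or YAP had 7 of 9 below 0 and a median of -0.29, led by the tissue factor gene F3 (-0.77) and the vinculin gene Vcl (-0.64).

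Of the remaining lower genes, Trib1, a pseudokinase gene, read 7.73, 7.84, 9.86 and 8.67, and Rgs16, which damps G protein signals, 7.93, 10.16, 11.10 and 10.07. The uncharacterised C3h11orf96 differed by -1.16 and Clcn5, a chloride transporter gene, by -1.02. Calhm5 was at 8.85, 8.62, 8.51 and 7.49. Clec2gl1 (-1.39) and Mug1l1 (-1.03) belong to families of close relatives whose transcripts a probe may also bind, and their SHP siRNA values of 5.50 and 5.41 lay below 5.83, so both are uncertain.

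Chemokines were the inflammatory group with the widest range. Of 18 genes 1 passed 2-fold on each side, 12 lay above 0 (51.5% of all genes did), and the median was 0.33. Cxcl9, which recruits T cells through CXCR3, read 7.20, 9.73, 6.87 and 9.18. Its fellow CXCR3 ligands Cxcl11 (8.69, 10.69, 9.04 and 9.80) and Cxcl10 (10.78, 12.43, 11.24 and 11.82) differed by 0.76 and 0.57. In all 3 the IFN-γ array was the highest and the SHP siRNA array the second.

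Monocyte chemokine genes were split. Ccl12 (0.87), Ccl4 (0.57) and Ccl3 (0.37) stood higher and Ccl7 (-0.41) lower, while Ccl2 differed by 0.08. Ccl5, at 10.89, 10.76, 10.13 and 9.10, was the 1 lower member past 2-fold and was highest in the untreated array. The neutrophil chemokine genes Cxcl2 (0.50), Cxcl1 (0.11) and Cxcl6 (-0.21) lay on both sides of 0, and the membrane-bound Cx3cl1 (9.47, 11.99, 10.41 and 11.17) was above it. Of 7 adhesion genes 5 lay above 0, with Vcam1 at 0.56 and Icam1 at 0.32. Among 8 chemokine receptor genes, Cxcr5, the receptor of the B cell chemokine CXCL13, was 2.19-fold higher (4.75, 7.76, 5.88 and 7.01), and the list median was -0.03.

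Inflammatory cytokine genes lay on both sides of 0, 13 of 22 above it. Il1b read 9.20, 11.12, 9.18 and 10.06, and Tnf 8.31, 11.49, 10.76 and 11.44. In contrast Il10 was at -0.62, the interleukin-1 receptor antagonist gene Il1rn at -0.33 and Tnfsf14 at -0.36. Il10 passed the filter through the untreated array alone (6.48). Its compared values, 5.72 and 5.10, both lay below 5.83, and -0.62 is thus only a rough figure. Over the 22 genes 2 passed 2-fold on the higher side, both of the TNF superfamily. These were Tnfsf15 (7.43, 9.76, 8.58 and 9.66), a T cell costimulator gene, and Tnfsf18 (4.22, 6.999, 4.50 and 5.50), whose compared values both lay below 5.83. The list median was 0.07. Among 12 inducible enzymes and acute phase genes 8 lay above 0 with a median of 0.21. Tnfaip2 (0.88), the itaconate enzyme gene Acod1 (0.78) and the nitric oxide synthase gene Nos2 (0.63) were higher, and Ptgs2, the inducible cyclooxygenase gene, was at -0.46.

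Every one of the 16 genes for NF-κB subunits and regulators lay above 0, and did so after quantile normalization, median centring and cyclic loess too. Their median was 0.21, beside a median of 1.46 for the IFN-γ array minus the untreated one, and 1 reached 2-fold with SHP siRNA. That gene was Ripk2, a kinase that relays signals from NOD receptors to NF-κB, at 9.20, 11.75, 10.42 and 11.55. The inhibitory Tnip3 (0.77) and the subunit genes Nfkb2 (0.54), Nfkb1 (0.50) and Rel (0.45) followed, and Rela (0.09) and Ikbke (0.04) were nearest 0. The inflammasome gene Nlrp3 (6.67, 8.93, 7.05 and 8.04), outside the lists, lay just under 2-fold at 0.98.

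As lists, genes of the interferon pathway itself differed little with SHP siRNA. Most of these lists also differed little between the IFN-γ and untreated arrays. The medians there were 0.10 for receptor, JAK and STAT genes, 0.05 for regulatory factors, 0.09 for antiviral genes and -0.0055 for antigen presentation genes. It was 0.53 for guanylate-binding protein and GTPase genes. Small SHP siRNA differences in lists near 0 there say little about genes that respond to IFN-γ. Of 11 receptor, JAK and STAT genes 0 reached 2-fold in either direction, against 0.407% of all genes. Their median was 0.04, with Stat5a at 0.44 and Stat5b at -0.59. The receptor genes Ifngr1 and Ifngr2 differed by 0.29 and 0.33. Of 7 interferon regulatory factors Irf8 (0.55) and Irf1 (0.34) were highest, and the median of 0.02 turned to -0.02 after cyclic loess. Of 9 guanylate-binding protein and GTPase genes 6 lay above 0 (median 0.13), led by Gbp4 (0.47) and Gbp5 (0.46). Antiviral genes had a median of -0.02 over 29, and antigen presentation genes -0.05 over 22, with 0 at 2-fold in both. In the latter the costimulatory genes Cd86 (9.01, 10.31, 9.02 and 9.89) and Cd40 (6.32, 7.99, 6.75 and 7.32) stood above the rest, and Tapbp was lowest at -0.43.

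The SOCS feedback inhibitors went opposite ways. Socs1, which blocks JAK kinases downstream of the IFN-γ receptor, was 2.22-fold higher, at 6.70, 8.60, 6.73 and 7.88. Socs3, which acts mainly on interleukin-6 family receptors, was at 8.76, 9.05, 10.82 and 9.84, a difference of -0.98. The list median was -0.03, and the other 6 lay between -0.32 (Socs5) and 0.01 (Socs4). The stretch before the start of Socs1 is shown because it was the 1 window of the 13 with an interferon-stimulated response element, present in 3.08% of windows of genes past the filter. Capitals mark 2 overlapping matches.
Socs1 (chr10:5389454-5389573, plus strand): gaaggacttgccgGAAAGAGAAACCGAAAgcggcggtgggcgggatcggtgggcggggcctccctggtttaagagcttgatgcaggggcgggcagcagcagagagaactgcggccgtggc

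These matches begin at -107 and -101. Among the 24 windows of lower genes the element was in 2, those of Egr4 and Fosb.

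**Figure D3:**
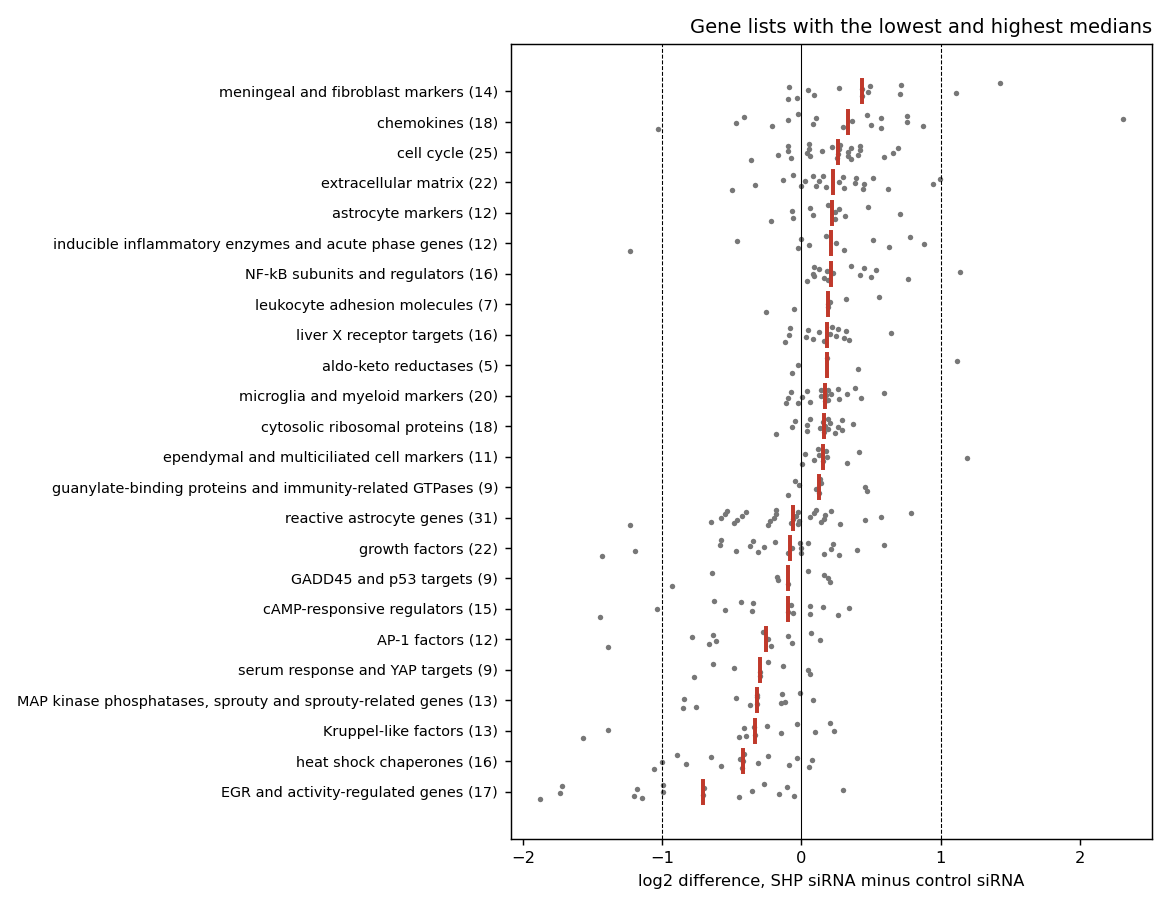
Log2 difference of SHP siRNA minus control siRNA for each member (grey points) of 24 gene lists, with the list median as a red bar and the number of genes past the filter in brackets, 1 array per condition. The lists shown are the 10 with the lowest and the 14 with the highest medians among those with at least 5 genes, from -0.70 for EGR and activity-regulated genes to 0.44 for meningeal and fibroblast markers.

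The relation to IFN-γ was followed with genes chosen on arrays that this difference does not use. Between the IFN-γ and untreated arrays 190 genes passed 2-fold on the higher side (1.61% of 11790) and 34 on the lower side (0.288%). In the SHP siRNA difference the 190 had a median of 0.30, 136 of them lay above 0, and 9 passed 2-fold upward (4.74%) and 7 downward (3.68%). The 34 had a median of -0.21, with 25 below 0 and 0 at 2-fold in either direction (0.407% of all genes). Of the 190, 18 belong to the 6 early response lists and had a median of -0.39, but that grouping was itself made from these differences, so the values only describe it.

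The SHP siRNA difference was graded with the size of the IFN-γ difference. The 56 genes whose IFN-γ difference reached 4-fold had a median of 0.51 and 82.1% lay above 0, those from 2-fold to under 4-fold (134) had 0.24, and those from 1.5-fold to under 2-fold (166) had 0.16, a grouping made after values were seen. The 11247 genes within 1.5-fold had a median of 0.01. Across all 11790 genes, which are not independent replicates, the 2 differences correlated at r = 0.15 (Pearson) and 0.08 (Spearman), a weak relation over genes that share the arrays' chemistry and probe effects.

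**Figure D4:**
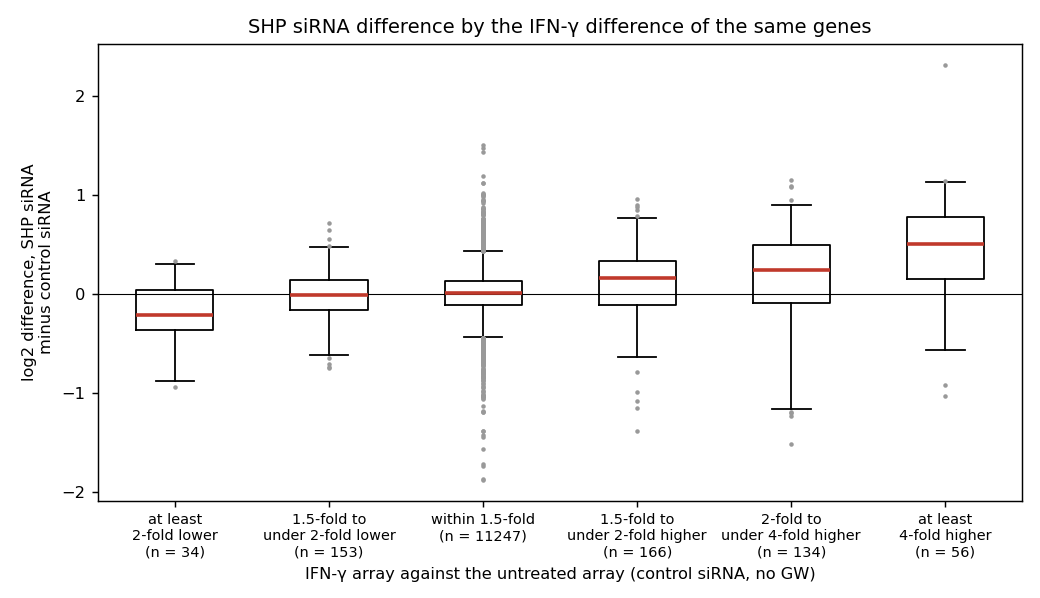
Log2 difference of SHP siRNA minus control siRNA, IFN-γ and GW being present in each, for genes grouped by how the IFN-γ array differed from the untreated array, with no array shared between the axes. Boxes span the quartiles, red lines are medians, whiskers hold the central 95% of genes, and points lie beyond them; the medians run from -0.21 at the left to 0.51 at the right.

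Of the 17 higher genes 9 also passed 2-fold with IFN-γ alone. They were Cxcl9, Socs1, Ripk2, Cxcr5, Msc, Tnfsf15, Ankrd33b, Tfec and Tnfsf18. Msc, a repressor of the basic helix-loop-helix class, read 6.21, 8.37, 6.58 and 7.70, and Tfec, a relative of the lysosomal regulator MITF, 7.80, 9.17, 7.73 and 8.81. Ankrd33b read 6.10, 7.97, 6.84 and 7.92. In these 3 the untreated and the control siRNA with GW arrays were the lower pair, an order favoured by how the genes were chosen. Of the 31 lower genes 7 stood past 2-fold higher in the IFN-γ than in the untreated array, Nr4a3, Ptx3, Egr2, Lif, C3h11orf96, Sik1 and Rgs16.

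The other higher genes did not differ with IFN-γ at 2-fold. Aqp1 read 8.52, 8.76, 7.77 and 9.27, and the astrocyte end-foot channel gene Aqp4 11.01, 11.54, 11.31 and 12.01, a difference of 0.71. In both the SHP siRNA array was the highest. The other 4 aquaporin genes past the filter lay between -0.32 and 0.15. Vof16, of unknown function, read 9.74, 9.82, 8.17 and 9.64, so that the control siRNA array with GW was the low one. Akr1b8, an aldo-keto reductase gene, read 6.35, 6.31, 5.03 and 6.14. Since 5.03 is below 5.83, how large its difference is remains uncertain. The adhesion gene Cdh13 read 7.01, 7.09, 6.70 and 7.70. Rpl27al5 (1.02) is a ribosomal protein gene copy whose relatives the probe may also bind, and it was below 5.83 with control siRNA.

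Some fibroblast marker genes were higher with SHP siRNA. Of 14 meningeal and fibroblast markers 11 lay above 0, 2 of them past 2-fold, and the median was 0.44, the highest of all lists with at least 5 genes. Postn, the gene of the matrix protein periostin, read 8.64, 8.63, 7.85 and 9.28. Aldh1a2, which makes retinoic acid and marks meningeal cells, read 7.55, 7.91, 6.70 and 7.81. Pdgfra (0.72) and the collagen genes Col3a1 (0.71), Col1a1 (0.48) and Col1a2 (0.43) had the same direction, while Pdgfrb was at -0.03 and Fn1 at 0.09. Their linear signal, summed over the 14, was 10463, 10732, 9525 and 11466 in the 4 arrays. Of 22 matrix genes in a separate list 0 reached 2-fold, 17 lay above 0 and the median was 0.22, with the gelatinase gene Mmp2 (7.21, 7.45, 6.53 and 7.53) and the collagen cross-linking gene Lox (8.73, 8.47, 7.76 and 8.71) at the top and the neural proteoglycan gene Ncan lowest (-0.50). Whether more meningeal or fibroblast RNA gave these values was not tested.

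Other cell type markers differed by less. Microglia and myeloid markers had 16 of 20 above 0, a median of 0.17 and 0 at 2-fold, with Ptprc (0.59), P2ry12 (0.43) and Ctss (0.39) highest and Cx3cr1 and Aif1 at -0.09 and -0.07. Their summed linear signal was 20597, 16169, 11058 and 12388, and their part in the higher inflammatory values was not tested. Astrocyte markers had 9 of 12 above 0 and a median of 0.22, with S100b at 0.48, and summed signals of 19617, 21053, 18688 and 21911. Reactive astrocyte genes had 11 of 31 above 0 and a median of -0.06. Oligodendrocyte (0.11 over 8) and neuron markers (0.06 over 5) stood near 0. The 3 endothelial and pericyte genes past the filter were Cdh5 (0.55), Flt1 (0.34) and Abcc9 (-0.34). Abcc9 passed through the control siRNA array with GW alone, so its difference below 0 was favoured by the filter. Summed linear signals were 1481, 1528, 1410 and 1474 for the oligodendrocyte, 5396, 5203, 4709 and 4849 for the neuron and 308, 325, 277 and 349 for the endothelial list.

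Gmnc, a coiled-coil gene that starts the multiciliated cell programme, was 2.28-fold higher, at 6.22, 5.76, 6.67 and 7.86. The ependymal and multiciliated list, which includes Gmnc, had all 11 genes above 0 (10 of 11 after median centring) and a median of 0.15. It was chosen with earlier results of these data known, and Gmnc was its 1 member past 1.5-fold. Ccdc39 (0.42) and Ccno (0.33) came next and Rsph1 was at 0.00. The summed linear signal of the list was 1616, 1721, 1921 and 2273.

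Metabolic targets of nuclear receptors showed small differences. Liver X receptor targets had 13 of 16 above 0, a median of 0.19 and 0 at 2-fold. The sterol exporter genes Abca1 (10.18, 10.12, 10.34 and 10.64) and Abcg1 (0.25), the lipoprotein genes Apoe (0.32) and Pltp (0.34) and the lipogenic gene Thrsp (0.65) were above 0, and Lpcat3 was lowest at -0.12. Of 15 partner receptor genes 0 reached 2-fold and the median was 0.04, with Rxra at 0.28, Nr1h2 at 0.09 and Nr1h3 at 0.04. Nr1h4, the bile acid receptor gene, lay below 5.83 in all 4 arrays (4.84, 4.83, 5.09 and 4.61). Of 10 genes that SHP is known to restrain in liver, 2 passed the filter, Cyp27a1 (0.52) and Mttp (5.53, 5.82, 5.51 and 6.16). Mttp passed through the SHP siRNA array alone, so a difference above 0 was favoured by the filter, and over all 10 genes the median was 0.10. Cholesterol synthesis genes had a median of 0.00 over 16.

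Retinoid genes had 7 of 12 above 0 and a median of 0.09, with the retinol transporter gene Stra6 at 0.81 beside Aldh1a2. Nrf2 and metal response genes had a median of 0.10 over 16, with Hmox1 at -0.68 and Akr1b8, of uncertain size as said, the 1 member past 2-fold. The 4 other aldo-keto reductase genes past the filter lay between -0.06 and 0.41. Cell cycle genes had 20 of 25 above 0 and a median of 0.26, led by Top2a (0.69), Ccna2 (0.66) and Ccne2 (0.60), with Ccnd1 at -0.36. Cytosolic ribosomal protein genes had 15 of 18 above 0 with a median of 0.16, respiratory chain genes 9 of 23 with a median of -0.03, and reference genes 3 of 10 with a median of -0.03. Some genes of high signal differed by 1.5-fold to 2-fold: the clock repressor gene Bhlhe40 (10.27, 10.69, 12.08 and 11.40) was lower, and the ectonucleotidase gene Entpd2 (10.60, 10.69, 10.39 and 11.03) and Cd4 (11.11, 10.84, 9.98 and 10.61) were higher. Among the reference genes Tfrc, usually taken as stable, was at 8.06, 8.21, 7.49 and 8.49.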

How the data were processed

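The authors' deposited table holds 1 value per probe for 29489 probes on 4 single-colour arrays. The authors' deposited values, from 1.14 to 13.4, were read as log2 signal of biotin-labelled sense cDNA fragments, per the labels' protocols. The log base, background correction, probe summary and normalization were not stated in any source used. Array medians ran from 5.79 to 5.87.

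Of the probes, 18511 had 1 gene symbol, 575 several and 10403 none; 18394 of the 18511 had an Entrez identifier in the RefSeq table of rat assembly GRCr8, which gave the current symbol. The probe with the highest mean stood for a gene, and genes whose highest value reached the table median were kept.

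Differences of log2 values were counted at 2-fold, with no test, since each group had 1 array. The 45 gene lists (719 of 805 entries matched) are summarised by counts and medians beside those over all genes. Named genes were all those past 2-fold, up to 6 members of each list with the greatest difference and those at its ends, Nr0b2, Ptpn6, Ptpn11, the Nr1h and Ifngr genes, the 3 nearest the threshold on each side, and the 5 with the highest signal past 1.5-fold in each direction. Other genes were named after their values were seen: Nlrp3 outside the lists, and further list members. The members and lists were chosen with earlier results of these data known. The counting steps were tested on simulated data with planted changes well past the threshold, which does not measure how reliable the present counts are.

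Alternatives were quantile normalization and cyclic loess (limma 3.58.1, R 4.3.3), median centring, other filters, the mean of probes or of lists, and thresholds of 1.5-fold and 3-fold. Other steps used Python 3.11.15 and pandas 2.3.3.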

Additional observations from a re-analysis of the deposited data

Results flagged for a closer look

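Probes that carry several gene symbols or none were left out of the gene counts but also differed between the siRNAs. With SHP siRNA 6 of the 3683 such probes past the filter reached 2-fold higher (0.163%) and 11 reached 2-fold lower (0.299%), with a median difference of -0.01. These shares are close to those of the named genes, and which transcripts the probes measure was not examined.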

How the results depend on the processing

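No paired analysis was possible because each group had 1 array. With no array to leave out, each difference rests on 2 measurements, and values below 5.83 have no known background. Counts of genes at least 2-fold higher and lower were 17 and 31; all 48 were also counted after quantile normalization (21 and 34) and cyclic loess (17 and 33), while median centring lost Tnfsf18, at 0.996, from the higher group. They were 27 and 48 with no filter, 168 and 142 at a threshold of 1.5-fold, and 1 and 4 at 3-fold, so the excess of lower genes turned at 1.5-fold. The median of genes higher with IFN-γ, 0.30 when chosen at 2-fold, was 0.20 when chosen at 1.5-fold and 0.43 at 3-fold; that of genes lower with IFN-γ, -0.21, was -0.0441 at 1.5-fold. With no filter the list medians of oligodendrocyte markers (0.11 to -0.0007), partner receptors (0.04 to -0.03) and interferon regulatory factors (0.02 to -0.03) turned. Those of fibroblast markers (0.44 to 0.32), genes restrained by SHP in liver (0.59 to 0.10), endothelial and pericyte markers (0.34 to 0.06) and aldo-keto reductases (0.18 to 0.02) fell. List means moved from the medians in 12 of 45 lists, such as cAMP regulators (-0.10 to -0.28) and aquaporins (0.04 to 0.31). Mean and median differed in sign for chemokine receptors (0.10 and -0.03), reference genes (0.09 and -0.03) and, with means from -0.01 to 0.01, antiviral, antigen presentation, stress response, cholesterol synthesis and neuron lists. Over the 3 scalings no list median moved by as much as 0.1, and the largest move of a named gene was 0.07. No pseudocount was tried, since the values were on a log scale.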
